A study of Mus musculus with 21 samples.

Results

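Transcripts of 9 complement genes were followed across 21 RNA sequencing libraries of mouse striatum. The genes were taken by symbol: C1qa, C1qb and C1qc, which encode the chains of the starter molecule C1q, the central components C3 and C4b, the alternative pathway protease Cfb, the inhibitor Serping1, and the receptors C3ar1 and C5ar1. All 9 symbols were found among the 41128 of the deposited table. Of these, 8 had a mean of at least 10 normalized counts in both sets of libraries and were tested, and Cfb was not.

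Striatum was collected 3 weeks after injection of an adeno-associated virus, a non-replicating gene carrier, into that region of wild type mice. The labels name Cas9 (the genome editing nuclease), GCas9, GFP (a fluorescent protein) or WT as the treatment. They do not spell out GCas9, which the study is known for as a Cas9 fused to part of Geminin to shorten its life, and they do not say whether WT mice received a virus. The labels name no strain, promoter or virus dose, and they give the age as 3 weeks in one field and 3 months in another. The libraries fall into 2 sets. In set A, WT, Cas9 and GCas9 are represented by 3 libraries per group, and in set B, GFP replaces WT and each group has 4 libraries. For set A, "virus libraries" and "both viruses" refer to Cas9 and GCas9, and do not mean that WT had no virus. Nothing in the labels says that each library came from its own mouse, so the p-values measure the spread between libraries.

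Levels are normalized read counts, which are reads divided by 1 scaling factor per library, and they were compared within a set only. A library of set A held 20.34 to 28.05 M (mega) reads on genes, and one of set B 6.09 to 11.07 M. Ppp1r1b, the defining marker of striatal spiny neurons, lay between 53417 and 68228 normalized counts in the libraries of set A and between 21660 and 28428 in those of set B. Ttr, the leading transcript of the choroid plexus, reached 280177 in replicate 1 of Cas9 in set A, against 188.3 to 10462 in the 5 other virus libraries of that set.

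Complement is a cascade of proteins that tags surfaces for removal. In the classical pathway C1q binds its target, the proteases C1r and C1s then cut C4 and C2, and the resulting enzyme cuts C3, whose fragments label the surface. Cfb forms the enzyme that amplifies C3 cleavage, Serping1 (C1 inhibitor) blocks C1r and C1s, and C3ar1 and C5ar1 sense the small fragments released from C3 and C5. In the brain, C1q is made largely by microglia, C4b and C3 transcripts are known to increase in reactive astrocytes, and complement tagging takes part in synapse removal.

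Against WT, the tested complement genes had higher mean levels with Cas9 in set A, with fitted log2 differences from 0.51 (C5ar1) to 2.82 (C3), while 49.1% of all genes tested had a higher mean. The groups did not overlap for 7 of the 8 genes, where 10.7% of all 15924 genes tested lay higher without overlap. The median difference of the 8 genes was 1.4, beside -0.00 for all genes, and 7 of the 8 reached a log2 difference of 1, which 3.87% of all genes did. None of the 8 passed limma's test at an adjusted p of 0.05 (adjusted p 0.405 to 0.70), at which 0.00628% of all genes, 1 gene, passed. At an unadjusted p under 0.05, 6 of the 8 were higher (6.17% of all genes). DESeq2 called C3ar1 alone of the 8 (adjusted p = 0.0461), where it called 0.597% of all genes as higher, and edgeR called no gene at all (0%).

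With GCas9 against WT, the fitted differences ran from 0.72 (C5ar1) to 3.42 (C3), with a median of 1.43 beside -0.00 for all genes, of which 49.9% had a higher mean. Again 7 of 8 genes did not overlap with WT (9.16% of all genes were higher without overlap) and 7 of 8 differed by at least 1 (4.09% of all genes). None of the 8 passed limma (adjusted p 0.693 to 0.787), where 1 gene of all tested passed (0.00628%), or 2 with replicate number as a block, which changed no call among the 8. At an unadjusted p under 0.05, 7 of the 8 were higher (4.44% of all genes). DESeq2 called C3 (adjusted p = 0.0116), C4b (0.0167) and C3ar1 (0.0208), where it called 1.27% of all genes as higher, and edgeR called none of the 8 (0.00628% of all genes). Both comparisons share the WT libraries.

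A single library moved these values. Without replicate 3 of GCas9, in which all 8 genes were at their highest, the median difference of GCas9 from WT was 0.94, 4 of the 8 genes in place of 7 reached a difference of 1, and DESeq2 called 24 genes in place of 218, none of them a complement gene of the 8. The same omission took the DESeq2 count for Cas9 against WT from 116 of 15924 to 640 of 15787 genes tested, although that library is in neither group. Among these 640 were C1qa, C1qb, C1qc, C3, C4b, C3ar1 and Serping1, with DESeq2 adjusted p from 6.23e-07 to 0.00758. These DESeq2 runs without 1 library were chosen after seeing the data. Without replicate 1 of Cas9, DESeq2 called 18 of 15880 genes for Cas9 against WT and none of the 8. C3, C4b and C3ar1 stayed called for GCas9 against WT, where it called 148 of 15880 genes.

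**Figure D1:**
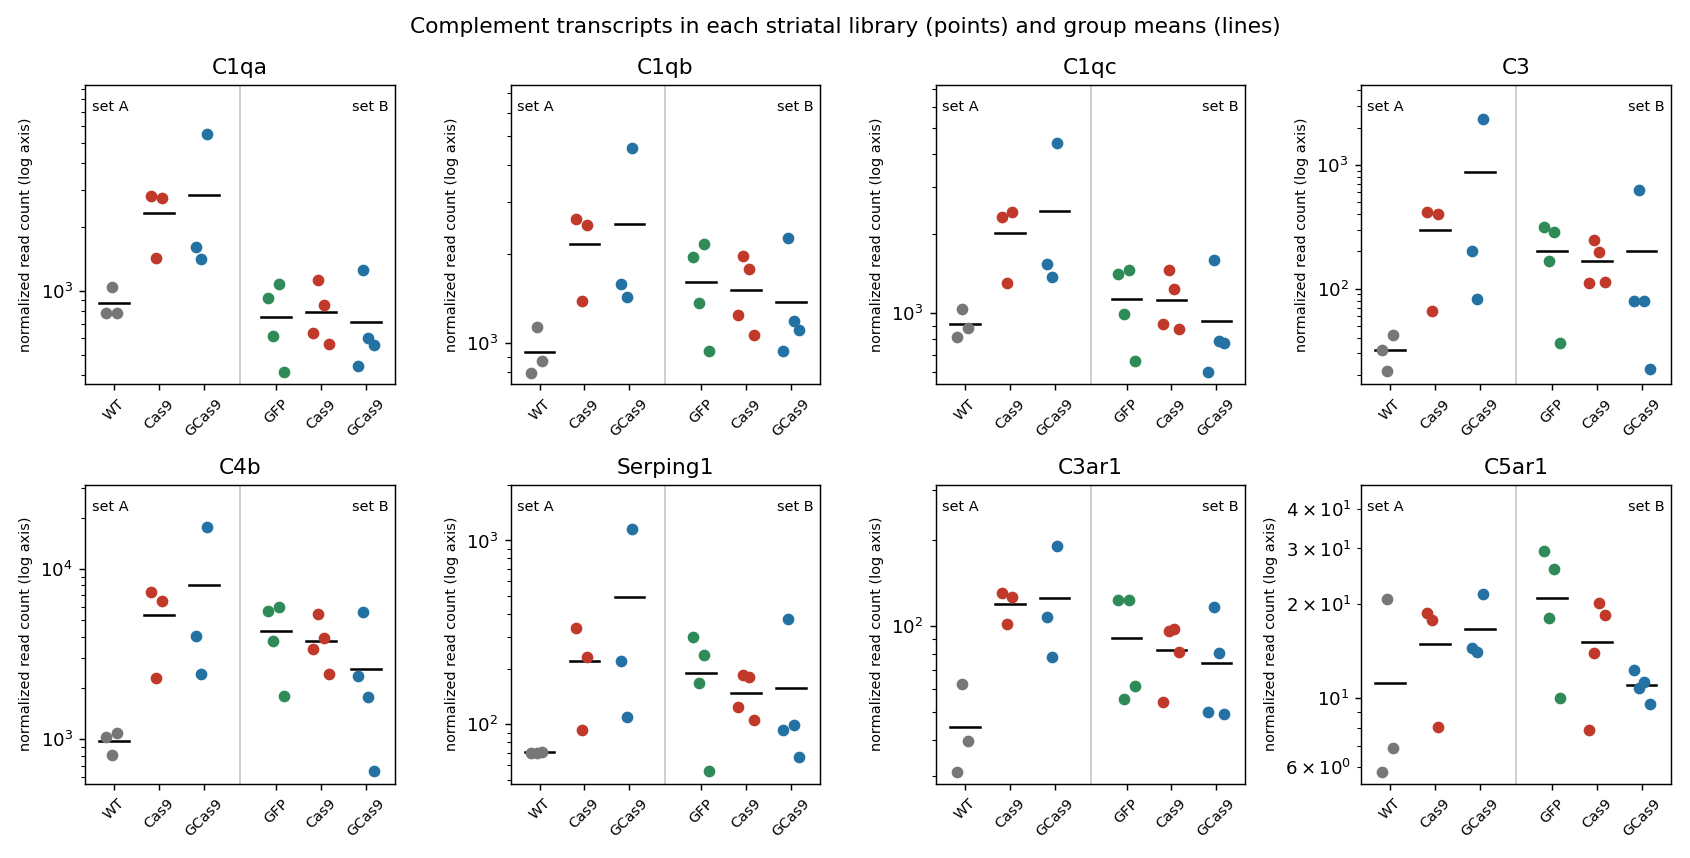
Normalized read counts (log axis, a separate range for each gene) of the 8 tested complement genes in each library (points) with group means (lines), set A left and set B right of the grey line in each panel. Apart from C5ar1, all virus libraries of set A lie above the 3 WT libraries, and replicate 3 of GCas9 is the highest point of set A in each panel, while the 3 groups of set B overlap.

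The 3 C1q chains are encoded side by side on the minus strand of chromosome 4 (GRCm38), C1qb at 136880129 to 136886187, C1qc at 136889804 to 136893065 and C1qa at 136895917 to 136898803. The RefSeq promoter table (GRCm38.p6) held entries for 5 of the 9 genes, C1qb, C1qc, C3, C3ar1 and C5ar1. The window before the C1qb start (chr4:136886201-136886450, minus strand) is shown because C1q is a gene group typical of macrophages and microglia and the window holds GAGGAA, the core bound by the myeloid factor PU.1 and its ETS relatives. The capitals mark that match, 30 to 25 bases before the start.
C1qb: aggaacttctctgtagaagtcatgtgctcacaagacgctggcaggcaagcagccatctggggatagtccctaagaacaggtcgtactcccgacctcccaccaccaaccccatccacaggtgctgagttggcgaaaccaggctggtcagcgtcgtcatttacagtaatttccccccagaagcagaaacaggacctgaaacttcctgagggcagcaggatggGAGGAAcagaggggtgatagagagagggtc
GAGGAA on either strand was found in 23.25% of 32851 RefSeq promoter windows of 250 bases, so the letters alone are common. In the C1qc window it occurs once on the other strand, as TTCCTC 193 to 188 bases before the start.

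C1qa was at 789.2, 1039 and 788 normalized counts in WT, at 2801, 1422 and 2743 with Cas9, and at 1605, 1409 and 5487 with GCas9. Every virus library lay above the highest WT library, and replicate 3 of GCas9 was 1.96-fold above the next one. The differences from WT were 1.36 ± 0.48 (SE) with Cas9 (2.57-fold, limma adjusted p = 0.405) and 1.42 ± 0.48 with GCas9 (2.68-fold, adjusted p = 0.724), the latter 0.80 without GCas9 replicate 3.
In set B, C1qa was at 922.9, 609.6, 1073 and 414 with GFP, at 629, 1120, 856.9 and 559.9 with Cas9, and at 441.4, 1256, 596.3 and 557.5 with GCas9. The groups overlapped, and each spanned at least 2-fold. C1qa differed from GFP by 0.11 ± 0.34 with Cas9 (adjusted p = 0.983) and by -0.11 ± 0.34 with GCas9 (adjusted p = 0.969).

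The other two chains repeated this order. In set A, C1qb was at 932.4 ± 180.8 (SD, n = 3) in WT, 2168 ± 683.7 with Cas9 and 2524 ± 1768 with GCas9, and C1qc at 911.8 ± 118.1, 2011 ± 612.4 and 2426 ± 1697. Neither chain's virus libraries overlapped with WT. Their differences from WT were 1.18 ± 0.43 and 1.10 ± 0.42 with Cas9 (adjusted p = 0.405 for both) and 1.24 ± 0.43 and 1.21 ± 0.42 with GCas9 (adjusted p = 0.724 for both). Without GCas9 replicate 3 the differences of GCas9 were 0.71 and 0.67. In set B the means of C1qb were 1606 ± 558.2 (GFP), 1513 ± 429.6 (Cas9) and 1376 ± 601.8 (GCas9) over 4 libraries each, well within each other's spread.

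Within a library the chains kept nearly fixed proportions. After the mean of each set was subtracted, the log2 profiles of C1qb and C1qc over the 21 libraries differed by 0.08 (root mean square), C1qa and C1qb by 0.11 and C1qa and C1qc by 0.13, against a spread of 0.69 for C1qa itself. The counts of C1qa and C1qb stood at a ratio of 0.91 to 1.2 in the libraries of set A but 0.44 to 0.57 in those of set B, and the ranges did not overlap. Within set A it was 0.91 to 0.99 in WT and 1.03 to 1.1 with Cas9, without overlap, and 0.99 to 1.2 with GCas9. For C1qc to C1qb the ranges were 0.88 to 1.03 and 0.64 to 0.82. The sets differ in scaling, in depth and in the share of reads on mitochondrial genes (6.00 to 7.57% in set A, 1.03 to 2.18% in set B). A scaling factor cancels in a ratio within a library. Whether library preparation differed between the sets was not tested.

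C3, the protein on which all complement pathways meet, is encoded on chromosome 17 at 57203970 to 57228136, minus strand. Its window (chr17:57228137-57228386, minus strand) is shown because C3 had the largest differences from WT of the 8 genes and because it holds TTGCGAAA, a match to TTGCNNAA, the core letters bound by C/EBP factors, which act on many acute-phase genes. The capitals mark the match, 45 to 38 bases before the start.
C3: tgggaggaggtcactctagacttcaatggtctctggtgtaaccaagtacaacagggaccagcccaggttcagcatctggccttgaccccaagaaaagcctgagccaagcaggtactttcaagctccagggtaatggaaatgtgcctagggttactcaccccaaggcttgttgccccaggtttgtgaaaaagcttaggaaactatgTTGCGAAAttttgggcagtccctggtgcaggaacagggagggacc
TTGCNNAA on either strand was found in 9.56% of the 32851 windows. Neither of 2 further motifs searched on both strands, the interferon-stimulated response element (in 2.98% of windows) and TTCNNNGAA (STAT, in 7.02%), was found in the windows of C1qb, C1qc, C3, C3ar1 or C5ar1. A match of letters is no measured binding site.

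C3 was at 31.8, 21.6 and 42.5 normalized counts in WT, at 417, 66.1 and 403.6 with Cas9, and at 201.4, 83.2 and 2332 with GCas9. All virus libraries lay above WT, from just above in replicate 2 of both viruses to far above in replicate 3 of GCas9, a span of 108-fold over set A. The differences from WT were 2.82 ± 1.14 with Cas9 (7.07-fold, adjusted p = 0.409) and 3.42 ± 1.14 with GCas9 (10.7-fold, adjusted p = 0.724), and 2.04 for GCas9 without its replicate 3.
In set B, C3 was at 315.7, 166.7, 285.9 and 36.4 with GFP, at 110.7, 246, 198.3 and 114.2 with Cas9, and at 79.1, 626.8, 79.5 and 22.3 with GCas9. The highest and the lowest library of the set were both GCas9 libraries, and the GFP group spanned 8.67-fold. The differences from GFP were 0.04 ± 0.83 with Cas9 (adjusted p = 0.997) and -0.65 ± 0.83 with GCas9 (adjusted p = 0.902). The sign turned with the count models, to -0.27 for Cas9 with both edgeR and DESeq2, and to 0.01 for GCas9 with DESeq2.

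C4b encodes C4, the classical pathway component that C1s cuts (chromosome 17, 34728380 to 34743882, minus strand). It was at 1027, 811.2 and 1087 in WT, at 7323, 2297 and 6479 with Cas9, and at 4008, 2425 and 17634 with GCas9. The lowest virus library was 2.11-fold above the highest WT library. The differences were 2.30 ± 0.68 with Cas9 (4.93-fold, adjusted p = 0.405) and 2.52 ± 0.68 with GCas9 (5.74-fold, adjusted p = 0.724). C4b had the lowest unadjusted p among the components in both, 0.00838 and 0.00509, below which lay 1.97% and 0.653% of all genes.
In set B, C4b was at 5693, 3750, 6011 and 1803 with GFP, at 3391, 5408, 3904 and 2426 with Cas9, and at 2345, 5618, 1766 and 647.5 with GCas9. GCas9 held the 2 lowest libraries of the set, and replicate 2 of GCas9 lay among the highest. The difference of GCas9 from GFP was -0.98 ± 0.53 (unadjusted p = 0.0823, adjusted p = 0.794), and it was -0.45 without GCas9 replicate 4. Cas9 differed from GFP by -0.10 ± 0.53 (adjusted p = 0.992).

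C4a is the near copy of C4b on the same chromosome, and 34.57% of the 50-base stretches of C4b transcripts also occur in C4a. How reads that fit both were counted is not given in the sources used here, so the 2 levels are uncertain where they share sequence. C4a was at 165.5 to 189.8 in WT, 132.1 to 178.5 with Cas9 and 149.1 to 180.3 with GCas9. The groups overlapped, and the differences from WT were -0.14 ± 0.14 (adjusted p = 0.712) and -0.12 ± 0.14 (adjusted p = 0.867). C4a therefore made up 13.9 to 17.0% of the summed C4a and C4b counts in WT, and 0.840 to 7.21% in the virus libraries of set A. In set B it was at 5.26 to 19.7, at most 1.93% of the sum.

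The ratio of C3 to C4b counts within a library was 0.027 to 0.039 in WT, 0.029 to 0.062 with Cas9 and 0.034 to 0.132 with GCas9. The highest ratio of each set was in the library with the highest C3, replicate 3 of GCas9 in set A and replicate 2 of GCas9 in set B (0.112). All other libraries lay between 0.020 and 0.062.

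**Figure D2:**
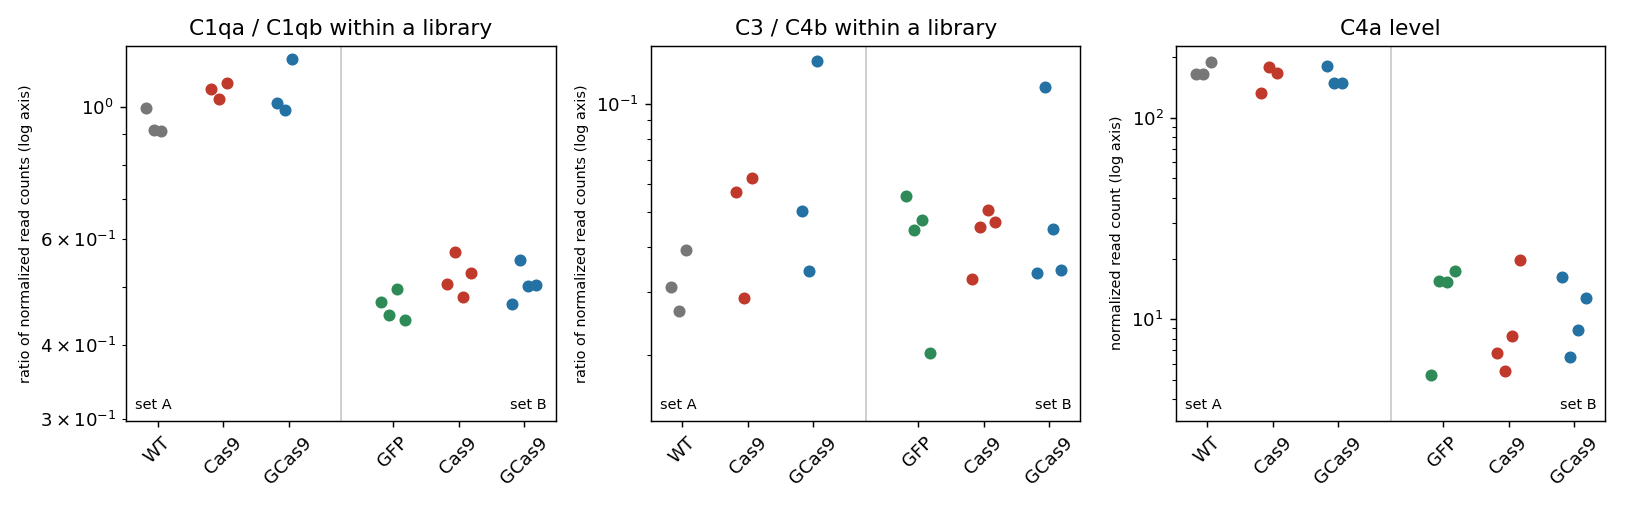
Counts of C1qa relative to C1qb and of C3 relative to C4b within each library, and the level of C4a (all on log axes; points are libraries, set A left and set B right of the grey line). The C1q ratio separates the sets, and within set A WT from Cas9 but not from GCas9, 1 GCas9 library in each set stands high in C3 relative to C4b, and C4a shows no separation of groups within a set.

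Cfb encodes factor B, which pairs with C3b in the amplification loop (chromosome 17, 34856374 to 34862518, minus strand). It had 11 reads over all 21 libraries, 2 in set A, both with Cas9, and 9 in set B, of which 5 were with GFP, 1 with Cas9 and 3 with GCas9. The 0 reads in the WT and GCas9 libraries of set A allow mean levels of up to 0.934 and 1.05 normalized counts (3 reads per group, counting error only), so no difference was detectable at this depth. Of its 2825 exon bases, 2246 (79.5%) are also exon bases of Gm20547, a gene model on the same strand that had 0 reads in all libraries. Reads that fall in both may not have been given to either, so the level of Cfb is uncertain. C2, the classical pathway partner of C4, lies next to it, shares 46.9% of its exon bases with other genes, and was at 1.82 to 15.8.

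Serping1, the C1 inhibitor (chromosome 2, 84765387 to 84775444, minus strand), was at 70.3, 69.8 and 71.2 in WT. It was at 332.8, 93.7 and 233.7 with Cas9 and at 221.5, 109.1 and 1152 with GCas9. The WT libraries spanned only 1.02-fold, and all virus libraries lay above them over a span of 12.3-fold. The differences were 1.45 ± 0.77 with Cas9 (2.73-fold, adjusted p = 0.471) and 2.09 ± 0.77 with GCas9 (4.26-fold, adjusted p = 0.724), and 1.13 for GCas9 without its replicate 3.
In set B, Serping1 was at 299.9, 168.4, 238.3 and 55.5 with GFP, at 124.2, 184.9, 181.8 and 105.6 with Cas9, and at 93.7, 372.6, 98.7 and 66.9 with GCas9. The groups overlapped, with the highest library in GCas9 and the lowest in GFP. The differences from GFP were -0.15 ± 0.53 with Cas9 (adjusted p = 0.985) and -0.38 ± 0.53 with GCas9 (adjusted p = 0.909).

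C3ar1, the receptor for the C3a fragment (chromosome 6, 122847138 to 122856161, minus strand), was at 30.8, 62.9 and 39.6 in WT. It was at 131, 101.6 and 126.4 with Cas9 and at 107.4, 77.8 and 190 with GCas9. No virus library fell into the WT range. The differences were 1.46 ± 0.35 with Cas9 (2.76-fold, limma adjusted p = 0.405) and 1.44 ± 0.35 with GCas9 (2.70-fold, adjusted p = 0.693). These had the lowest unadjusted p of the 8 genes in both comparisons, 0.00239 and 0.00268, below which lay 0.465% and 0.377% of all genes.
In set B, C3ar1 was at 90.9 ± 37.2 (SD, n = 4) with GFP, 82.3 ± 20.2 with Cas9 and 74.0 ± 31.7 with GCas9. The groups overlapped (adjusted p = 0.988 and 0.89 against GFP).

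C5ar1, the receptor for C5a (chromosome 7, 16246743 to 16259540, minus strand), rested on 6 to 28 reads per library. It was at 5.78, 20.7 and 6.92 in WT, at 18.7, 17.8 and 8.09 with Cas9, and at 14.4, 14.1 and 21.5 with GCas9. It was the tested gene whose virus libraries overlapped with WT, because WT replicate 2 lay among the highest. The differences from WT were 0.51 ± 0.52 (adjusted p = 0.70) and 0.72 ± 0.52 (adjusted p = 0.787). In set B it was at 20.8 ± 8.64 (SD, n = 4) with GFP, 15.1 ± 5.44 with Cas9 and 11.0 ± 1.13 with GCas9. Its difference of GCas9 from GFP, -0.77 ± 0.37, had the lowest unadjusted p of the 8 genes there, 0.0564 (adjusted p = 0.77).

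In set B, with GFP virus as the control, none of the 8 genes was set apart by either nuclease. For Cas9 against GFP, 3 genes had higher and 5 had lower means, or 1 higher with edgeR or DESeq2 (48.7% and 51.3% of the 15428 genes tested), with a median of -0.07 beside -0.01 for all genes. For GCas9 against GFP, all 8 were lower, or 7 with DESeq2 (50.9% of all genes were), with a median of -0.34 beside -0.00. In both comparisons none of the 8 passed limma or edgeR, with which 0% of all genes passed, or reached an unadjusted p of 0.05, which 6.24% of all genes did for Cas9 and 6.48% for GCas9. The groups overlapped for all 8, where 4.68% and 4.16% of all genes did not overlap in either direction. DESeq2 called none of the 8 among the 14 and 41 genes it called (0.0907% and 0.266%), but gave no adjusted p for C3ar1 and C5ar1 in the comparison of Cas9 with GFP. Without replicate 4 of GFP, whose 8 genes all lay below the GFP mean, the median was -0.38 for Cas9, with none of the 8 higher, and -0.71 for GCas9. Without replicate 1 or replicate 3 of GFP it was 0.12 or 0.11 for Cas9, with 7 of the 8 higher in each, and -0.15 or -0.18 for GCas9, with 1 higher in each. Without replicate 4 of GCas9 it was -0.15 for GCas9.

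The comparison of GCas9 with Cas9 asked whether the changed nuclease was accompanied by other levels of these genes. In set A, 7 of 8 were higher with GCas9, or 8 with edgeR or DESeq2 (54.3% of all genes were), with a median of 0.16 beside 0.01, and in set B all 8 were lower, or 6 with edgeR or DESeq2 (49.4% of all genes were), with a median of -0.28 beside 0.00. The groups overlapped for all 8 in both sets, where 8.84% of all genes in set A and 2.02% in set B did not overlap in either direction. None of the 8 passed limma or edgeR, with which 0% of all genes passed in either set, or reached an unadjusted p of 0.05, which 5.45% and 3.84% of all genes did. DESeq2 called none of the 8, and 4 genes in set A (0.0251%) and none in set B (0%), with no adjusted p for C3ar1 and C5ar1 in set A. The set A direction rested on single libraries. Without replicate 3 of GCas9, 1 of the 8 was higher and the median was -0.45, and without replicate 2 of Cas9, 2 were higher and the median was -0.20. The largest difference was that of C4b in set B, -0.88 ± 0.53 (adjusted p = 0.995), followed by C3 in set B, -0.69 ± 0.83 (adjusted p = 0.995), which was 0.26 with edgeR and 0.27 with DESeq2.

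Over both sets the mean difference of GCas9 from Cas9 was between -0.33 ± 0.46 (C4b) and 0.21 ± 0.49 (Serping1), with 1 of 8 genes higher, 5 with edgeR and 6 with DESeq2 (52% of all genes were), and a median of -0.08. Leaving out each library in turn gave 0 to 6 genes higher and medians of -0.35 to 0.07. The difference of this contrast between the sets was positive for all 8 genes (50.6% of all genes), from 0.18 ± 0.52 (C3ar1) to 1.29 ± 1.5 (C3), with a median of 0.50. Without replicate 3 of GCas9 in set A, 2 of the 8 were positive and the median was -0.10. None of the 8 reached an unadjusted p of 0.05 in either test, which 3.72% and 4.34% of all genes did, and limma, DESeq2 and edgeR each called 0% of the 16094 genes tested.

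**Figure D3:**
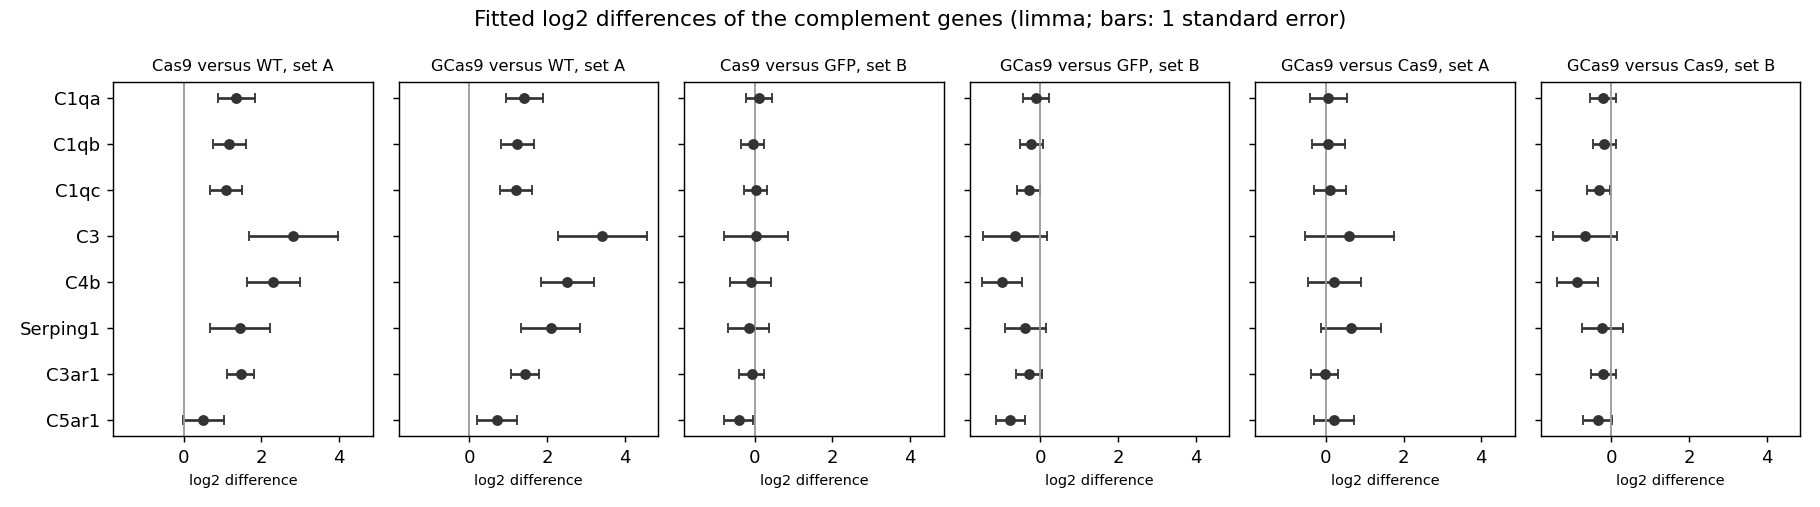
Fitted log2 differences (points) with 1 standard error (bars) of the 8 complement genes in the 6 comparisons within a set, on one scale, with the grey line at 0. All points of the 2 comparisons with WT lie above 0, and the bars of C3 are the widest. In the other panels the points lie on both sides of 0 for Cas9 against GFP and mostly above it for GCas9 against Cas9 in set A. Both panels of GCas9 in set B lie below 0.

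The libraries of a group differed more from each other than the virus groups did. Averaged over the 8 genes, the log2 difference from the WT mean was 3.11 in replicate 3 of GCas9, then 1.99 and 1.75 in replicates 1 and 3 of Cas9, 1.33 in replicate 1 of GCas9 and 0.83 in replicate 2 of both. Replicate 3 of GCas9 held the highest level of all 8 genes, and Cas9 replicate 1 the second highest of 6.
In set B, measured from the GFP mean, replicate 2 of GCas9 (0.67) and replicates 1 and 3 of GFP (0.59 and 0.57) were highest, and replicate 4 of GFP (-1.02) and of GCas9 (-1.20) lowest. Each of the 3 groups of set B thus held libraries on both sides of the GFP mean.

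**Figure D4:**
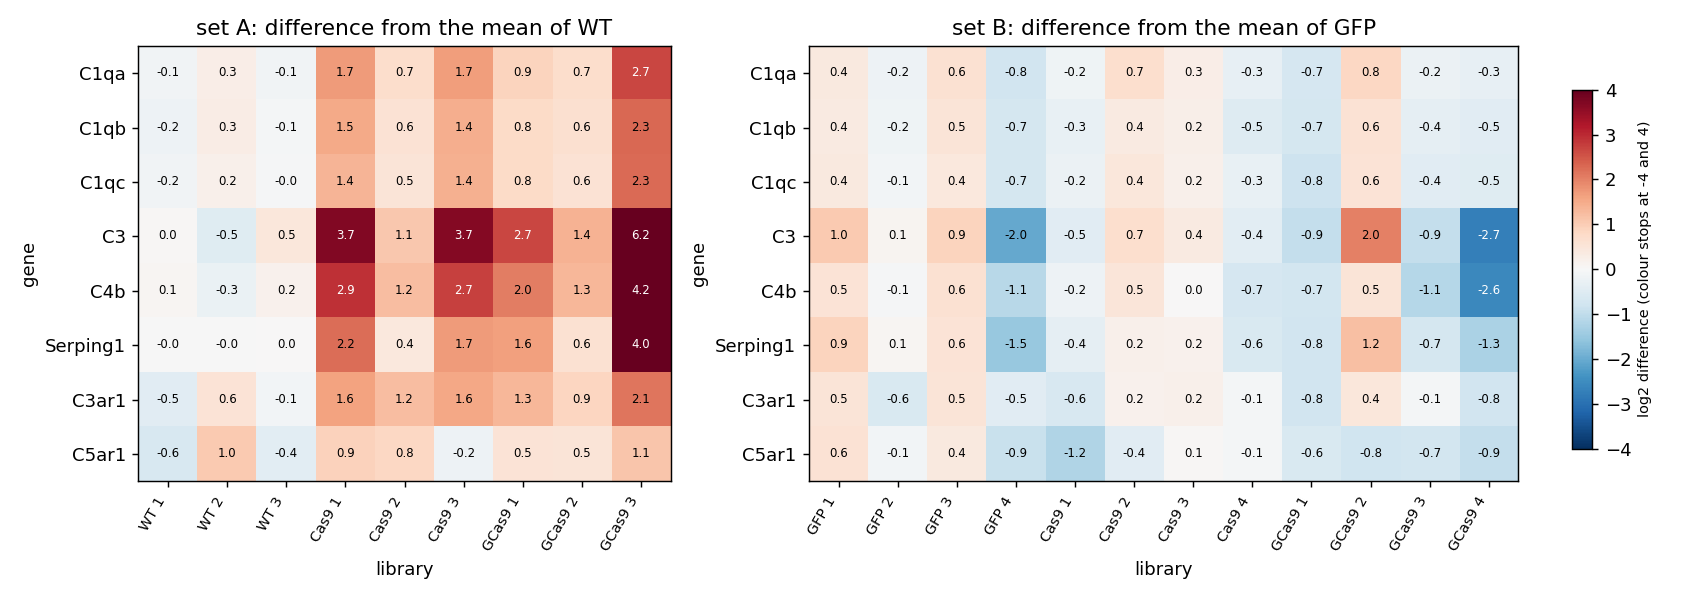
Log2 difference of each gene in each library from the mean of WT (set A, left) or GFP (set B, right), printed in each cell, with red above and blue below the control mean and the colour ending at 4 in either direction. Columns, which are libraries, are mostly of one colour, with C3 the strongest in replicate 3 of GCas9 in set A and replicates 2 and 4 of GCas9 in set B.

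Scaled to exon length, the level order in WT was C1qb (857 ± 166 normalized counts per kb, SD, n = 3), C1qa (839 ± 139), C1qc (472 ± 61.2), C4b (171 ± 25.5), Serping1 (30.3 ± 0.299), C3ar1 (10.3 ± 3.86), C3 (6.21 ± 2.04) and C5ar1 (4.33 ± 3.23). C1qa and C1qb, and C3 and C5ar1, did not differ beyond their spread. C3ar1 lay above C3 per kb in each WT library. Its counts were 30.8, 62.9 and 39.6 over 4.305 kb of exon, against 31.8, 21.6 and 42.5 for C3 over 5.143 kb. With GCas9 in set A, the mean of C4b (1409 ± 1468 per kb) stood above that of C1qc (1256 ± 879), within the spread. This order rested on replicate 3. In replicates 1 and 2, C4b lay below C1qc per kb, at 4008 and 2425 counts over 5.695 kb against 1529 and 1366 over 1.931 kb. The mean of C3 (170 ± 246) exceeded that of C3ar1 (29.1 ± 13.5) by less than the SD of C3. With GFP in set B, C4b (758 ± 342) was level with C1qa (726 ± 287), below C1qb (1476 ± 513).

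The genes nearest in pattern were sought among the 11653 genes with a mean of at least 50 in both sets, by the root mean square difference of log2 profiles over the 21 libraries after subtracting the mean of each set. For C1qa these were Ctss (0.10), a lysosomal protease abundant in microglia, and then C1qb and C1qc. C3 was nearest to Psmb9 (0.39), an immunoproteasome subunit, Tap1 (0.39), a peptide transporter of antigen presentation, and Tgtp2 (0.41), an interferon-inducible GTPase. C4b was nearest to the MHC class I genes H2-D1 (0.34) and H2-K1 (0.35) and to Gfap (0.35), the filament protein of astrocytes. Serping1 was nearest to Tap2 (0.23), Irf1 (0.27) and Tspo (0.28). The libraries share their scaling within a set, and the spread of the 4 genes themselves was 0.69 (C1qa), 1.65 (C3), 1.15 (C4b) and 1.03 (Serping1). Libraries far from the mean of their set weigh most in this measure. One such was replicate 3 of GCas9 in set A, where C3 lay 6.2 (log2) above the WT mean. Whether the same neighbours are found without it was not tested.

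Of the other genes of the cascade, none passed limma in either comparison with WT. Among the other initiation genes (C1r and C1s family, C2, C4a, lectins and their proteases), 8 of 17 were tested, with a median difference of 0.82 for Cas9 and 0.53 for GCas9. C1ra, a protease that C1q carries, was at 5.93 to 6.74 in WT, 14.8 to 61.4 with Cas9 and 19.5 to 264 with GCas9. Its differences were 2.34 ± 0.91 (adjusted p = 0.405) and 2.88 ± 0.91 (adjusted p = 0.724), and DESeq2 called it for GCas9 (adjusted p = 0.00557). Colec12, a scavenger lectin, differed by 0.73 ± 0.21 and 0.50 ± 0.21 (adjusted p = 0.405 and 0.724).

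Among the receptors outside the set, 7 of 9 were tested, with medians of 0.54 (Cas9) and 0.35 (GCas9). Itgax, a subunit of complement receptor 4, was at 5.93 to 12.1 in WT, 51.3 to 121 with Cas9 and 45.1 to 241 with GCas9. Its differences of 3.32 ± 0.62 and 3.26 ± 0.62 did not pass limma (adjusted p = 0.405 and 0.495) and were called by DESeq2 (adjusted p = 0.000869 and 0.000126). Its partner Itgb2 differed by 1.47 ± 0.52 and 1.58 ± 0.52 (limma adjusted p = 0.405 and 0.724, DESeq2 0.155 and 0.0208).

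Of 20 regulators 17 were tested, with medians of 0.05 for Cas9 and -0.10 for GCas9. Csmd1, a membrane inhibitor, differed by -0.25 ± 0.07 for Cas9 (limma adjusted p = 0.405). Of the 9 alternative and terminal pathway genes 4 were tested, with medians of -0.51 and -0.21. In set B the regulator Vtn, which blocks the terminal complex, was at 686 to 762 with GFP, 787 to 851 with Cas9 and 880 to 956 with GCas9. GCas9 differed from GFP by 0.33 ± 0.06 (limma adjusted p = 0.132, edgeR 0.128), and DESeq2 called this difference (adjusted p = 0.000686). Both Cas9 and GCas9 lay above GFP without overlap, where 4.68% and 4.16% of all genes did not overlap in either direction. In set A, Vtn was at 1231 to 1529 in WT, 1538 to 1907 with Cas9 and 1454 to 1594 with GCas9. Vtn is also a transcript of mural cells.

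Markers of most other cell types looked at stood higher than in WT beside these genes in set A. With Cas9, all 12 astrocyte, 12 fibroblast and mural, and 10 endothelial markers were higher (medians 0.18, 0.46 and 0.34). With GCas9, 8, 9 and 7 of them were (medians 0.13, 0.17 and 0.09). Spiny neuron markers were lower, 10 of 11 with Cas9 and 11 of 11 with GCas9 (medians -0.10 and -0.13). In striatal tissue, more cells of a type and more RNA per cell cannot be told apart. All 16 microglial markers had higher means with Cas9 and with GCas9 than in WT (medians 0.54 and 0.29), and their summed level was 12210 to 14392 in WT, 16554 to 22990 with Cas9 and 15425 to 29761 with GCas9. The microglial marker P2ry12 was at 898 to 956 in WT, 1059 to 1227 with Cas9 and 869 to 1062 with GCas9. All 11 tested markers of monocytes and macrophages were higher (medians 2.44 and 2.77), with sums of 553 to 666, 1321 to 2520 and 1234 to 4465. The 9 neutrophil markers summed to 212.7 to 242.2 in WT, 275.1 to 505.4 with Cas9 and 247.4 to 606.2 with GCas9, without overlap with WT. Nearly all of this was Csf3r, a receptor that microglia also make and the only one of the 9 tested, at 198.7 to 232.7, 269.2 to 492.9 and 245.3 to 602.8. Ly6g was at 0 in all libraries and S100a8 at 9.36 at most. The part of any of these cells in the complement values was not tested.

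All 16 reactive astrocyte genes were higher than in WT with both viruses (medians 1.61 and 1.64), with sums of 3571 to 4045 in WT, 9451 to 24737 with Cas9 and 9863 to 60281 with GCas9. All 22 interferon-stimulated genes were higher too (medians 2.14 and 3.01), with sums of 2125 to 2267, 2870 to 9489 and 2793 to 67872. Markers of B and plasma cells had medians of 2.77 and 2.76, with all 8 tested higher, and choroid plexus and ependymal markers 1.94 and 1.05, with 10 and 12 of 12 higher. The choroid plexus and ependymal markers summed to 1272 to 1738 in WT, 1233 to 298212 with Cas9 and 1906 to 12827 with GCas9. The highest sum was in replicate 1 of Cas9, where Ttr alone was at 280177. With Cas9, 0 of the 12 lay above WT without overlap (10.7% of all genes), and with GCas9 6 did (9.16%). Of 7 tested markers of T and NK cells, 6 were higher with each virus (medians 2.28 and 1.88), and Cd3e was at 1.72 to 5.78 in WT, 3.94 to 37.4 with Cas9 and 2.88 to 125.5 with GCas9. All 10 oligodendrocyte markers were higher with Cas9 (median 0.5), and 3 of 10 with GCas9 (median -0.03). With Cas9 all 10 had an unadjusted limma p under 0.05, as 6.17% of all genes did as higher (smallest adjusted p 0.405). Of the 10, 3 lay above WT without overlap, as did 10.7% of all genes. In set B, with GCas9 against GFP, all 22 interferon-stimulated genes were lower (median -1.08), as were all 15 tested reactive astrocyte genes (-0.45) and all 8 tested markers of B and plasma cells (-1.09), and the median of the microglial markers was -0.04. The part of these genes in the complement values was not tested.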

How the data were processed

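Per the labels' protocols, column-purified striatal RNA was turned into cDNA with SMARTer reagents and into libraries by Nextera XT. GRCm38.p3, R 3.3.3, DESeq2, HTSeq, SAMtools and STAR 2.5.2b are listed in the submitters' processing notes, with no roles. The deposited signal per gene symbol was made by the authors by dividing read counts by 1 size factor per library, which the values bear out: all of them were whole multiples of 1 step per library within 0.001 reads. cDNA was amplified before counting, so reads are not independent molecules and counting error understates the error.

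Title numbers and scaling separate the 2 sets (a library of set A sums to 23.0 to 24.18 M normalized counts, one of set B to 8.21 to 8.69 M). The test was limma's (version 3.58.1, R 4.3.3, two-sided, with a mean trend) on log2(normalized count + 1), on genes with a mean of at least 10, each set with its 3 groups and no block. P values were adjusted by Benjamini and Hochberg over all genes, with 0.05 as the threshold. Differences are on that log2 scale, which understates changes of low genes, and are given ± SE. A fit over all 21 libraries gave GCas9 against Cas9 over both sets and its difference between sets. edgeR 4.0.16 and DESeq2 1.42.0 on recovered reads, another pseudocount, filters, scaling, a replicate block and leaving out libraries were tried. The procedure was tested on simulated counts.

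Replicate numbers in the titles were checked as pairs by the correlation of deviations from group means. It exceeded 0.1 in every pair for GCas9 and WT in set A (0.112 to 0.284) and for GCas9 and Cas9 in set B (0.121 to 0.329), not for the other comparisons. The 9 genes and all lists were chosen with earlier results of these data known. Of other complement genes, at most 4 per list and comparison were named, by smallest p. Nearest patterns were sought for C1qa, C3, C4b and Serping1. Positions are from GENCODE M21 (GRCm38), promoters from RefSeq.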

Additional observations from a re-analysis of the deposited data

Results flagged for a closer look

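Of 27 groups of 4 libraries looked at among the 9 genes, 3 held a library far from the others on the scale of normalized counts. The rule's rate of about 1 in 20 groups holds for independent groups with normally spread values. These counts were not put on the log2 scale and the genes vary together, so the 3 cases cannot be weighed against that rate. C3 was at 626.8 normalized counts in replicate 2 of GCas9 in set B, against 22.3 to 79.45 in the 3 other libraries of that group. Serping1 was at 372.6 in the same library, against 66.9 to 98.72 in the others. Cfb was at 1.129 in replicate 1 of Cas9 in set B, which is 1 read, and at 0 in the other 3 libraries of that group. A single read beside 0 reads always stands apart in this way, so this case was fixed in advance.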

How the results depend on the processing

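The 8 tested genes kept their direction against WT under every alternative run, and none passed limma with any library left out (lowest adjusted p 0.096, C4b, Cas9 against WT without Cas9 replicate 2). The cause of the changes below was not tested.

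Genes called at an adjusted p of 0.05 for Cas9 against WT numbered 1, or 0 with a pseudocount of 5 or edgeR, 116 with DESeq2, 2 with replicate number as a block and 6 in a fit of the 2 groups alone. For GCas9 against WT they numbered 1, or 218 with DESeq2 and 2 with the block. DESeq2 runs leaving out 1 library, chosen after seeing the data, gave 18 and 148 calls without Cas9 replicate 1 and 640 and 24 without GCas9 replicate 3. DESeq2 called 4 genes for GCas9 against Cas9 in set A, 14 for Cas9 against GFP and 41 for GCas9 against GFP, the last with 5 under the block and 7 in a fit of the 2 groups. Without a filter on low values, 4 genes passed for the mean of both sets and 1 for the difference between sets. Leaving out each library in turn gave 0 to 7 calls for Cas9 against WT, 0 to 2 for GCas9 against WT, 0 to 1 for GCas9 against Cas9 in set A, 0 to 2 for Cas9 against GFP, 0 to 9 for GCas9 against GFP, 0 to 0 for GCas9 against Cas9 in set B, and 0 to 1 for the mean of both sets and for the difference between sets.

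Replicate numbers as a block changed no call or direction of the 8 genes. Same-numbered libraries correlated at -0.0186 to 0.644 in set A (6 of 9 over 0.1) and -0.13 to 0.462 in set B (7 of 12).

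Signs turned in GCas9 against Cas9 in set A. DESeq2 without GCas9 replicate 3 gave -0.63 for C1qa, -0.53 for C1qb, -0.48 for C1qc, -1.06 for C3, -0.74 for C4b, -0.067 for C5ar1 and -0.42 for Serping1. C3ar1 was at 0.049 with edgeR, 0.061 with DESeq2 and 0.13 with DESeq2 without Cas9 replicate 1. With edgeR and DESeq2, Cas9 against GFP gave -0.012 and -0.0099 for C1qc and -0.27 and -0.27 for C3. GCas9 against GFP gave 0.0051 for C3 with DESeq2. GCas9 against Cas9 in set B gave 0.26 and 0.27 for C3 and 0.071 and 0.081 for Serping1, and the mean of both sets 0.0051 and 0.0087 for C4b.

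Leaving out each library in turn also turned signs. For GCas9 against Cas9 in set A the ranges were -0.56 to 0.42 (C1qa), -0.47 to 0.37 (C1qb), -0.42 to 0.42 (C1qc), -0.78 to 1.61 (C3), -0.62 to 0.82 (C4b), -0.38 to 0.26 (C3ar1), -0.15 to 0.41 (C5ar1) and -0.32 to 1.38 (Serping1). For Cas9 against GFP they were -0.15 to 0.31 (C1qa), -0.29 to 0.11 (C1qb), -0.21 to 0.17 (C1qc), -0.64 to 0.38 (C3), -0.47 to 0.10 (C4b), -0.28 to 0.10 (C3ar1) and -0.66 to 0.15 (Serping1). For GCas9 against GFP they were -0.42 to 0.091 (C1qa) and -1.54 to 0.044 (C3), and for GCas9 against Cas9 in set B -1.58 to 0.0063 (C3) and -0.76 to 0.06 (Serping1). The mean of both sets ran from -0.27 to 0.57 for Serping1, and the difference between sets from -0.10 to 2.30 for C3 and -0.17 to 0.47 for C3ar1. Without GCas9 replicate 3 of set A, 2 of the 8 genes were positive in the difference between sets, where all 8 were with all libraries. C5ar1 and Cfb rest on few reads in both sets.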
